A study of Mus musculus with 6 samples.

Results

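Ribosomes carry out protein synthesis, and the genes described here encode the proteins of the cytosolic ribosome. Members were the array symbols that match the naming pattern of large subunit (Rpl and Rplp) and small subunit (Rps and Rpsa) proteins, with the brightest transcript cluster taken for each symbol. A transcript cluster is the set of probes that the array assigns to a gene. This gave 63 genes of the 19505 with a symbol, 39 of the large and 24 of the small subunit, each on a single cluster. The pattern also takes in paralogs such as *Rpl3l* and *Rpl22l1*, and it leaves out *Fau* and *Rpl36al*, which are given separately.

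Total RNA came from the hippocampus of mouse pups on postnatal day 10, labelled male, and was measured on 1-colour Clariom S arrays. Every pup carried the *LAO1* KO genotype, on a C57BL/6Jcl background. The 3 arrays of *LAO1* KO with WT milk came from pups nursed by WT dams, and the 3 arrays of *LAO1* KO with KO milk from pups nursed by *LAO1* KO dams. The dams took the pups over on the day of birth. *LAO1* encodes an L-amino acid oxidase of mouse milk that releases hydrogen peroxide. The groups differed in the genotype of the nursing dam and not in that of the pup, so the level of *Lao1* in the pups does not check the labels. It ran from 4.06 to 4.66 on the log2 intensity scale at the 15.7th percentile, with overlap between the groups. The labels do not say which pups shared a litter, so the p-values below measure only the spread between these 6 samples.

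A ribosome needs each of its core proteins in about equal number, and the cell makes them together. Their mRNAs are short and abundant, and many begin with a run of pyrimidines, the terminal oligopyrimidine (TOP) tract, through which the kinase mTOR and the protein Larp1 adjust their translation. In the developing brain, ribosomal proteins are made in cell bodies, and their mRNAs are also found in axons and dendrites. Many processed pseudogenes of these genes lie in the mouse genome, and the array values do not separate a gene from transcribed copies with the same sequence.

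No difference of a ribosomal protein gene between the milk groups passed the test. No member was called by limma after Benjamini-Hochberg adjustment over all 22206 clusters, where 0% of clusters passed (adjusted p = 0.9996 for every member). At an unadjusted p under 0.05, 0 of the 63 members were higher and 0 were lower with KO milk, where 1.61% and 1.66% of all clusters were called. At an unadjusted p under 0.1, 5 members were higher, where 3.8% of all clusters were, and 0 were lower. The smallest unadjusted p was 0.0673. The log2 fold changes, called differences below and always taken as KO milk less WT milk, ran from -0.31 to 0.52 with a median of 0.12, whereas the median of all clusters was 0.0043. Of the members, 51 had a value above 0 and 12 a value below 0, and 50.8% of all clusters had a value above 0. These signs come from the same 6 arrays for every gene and are not separate pieces of evidence. In bulk tissue, a change in the number of cells of a type and a change in RNA per cell cannot be told apart.

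**Figure D1:**
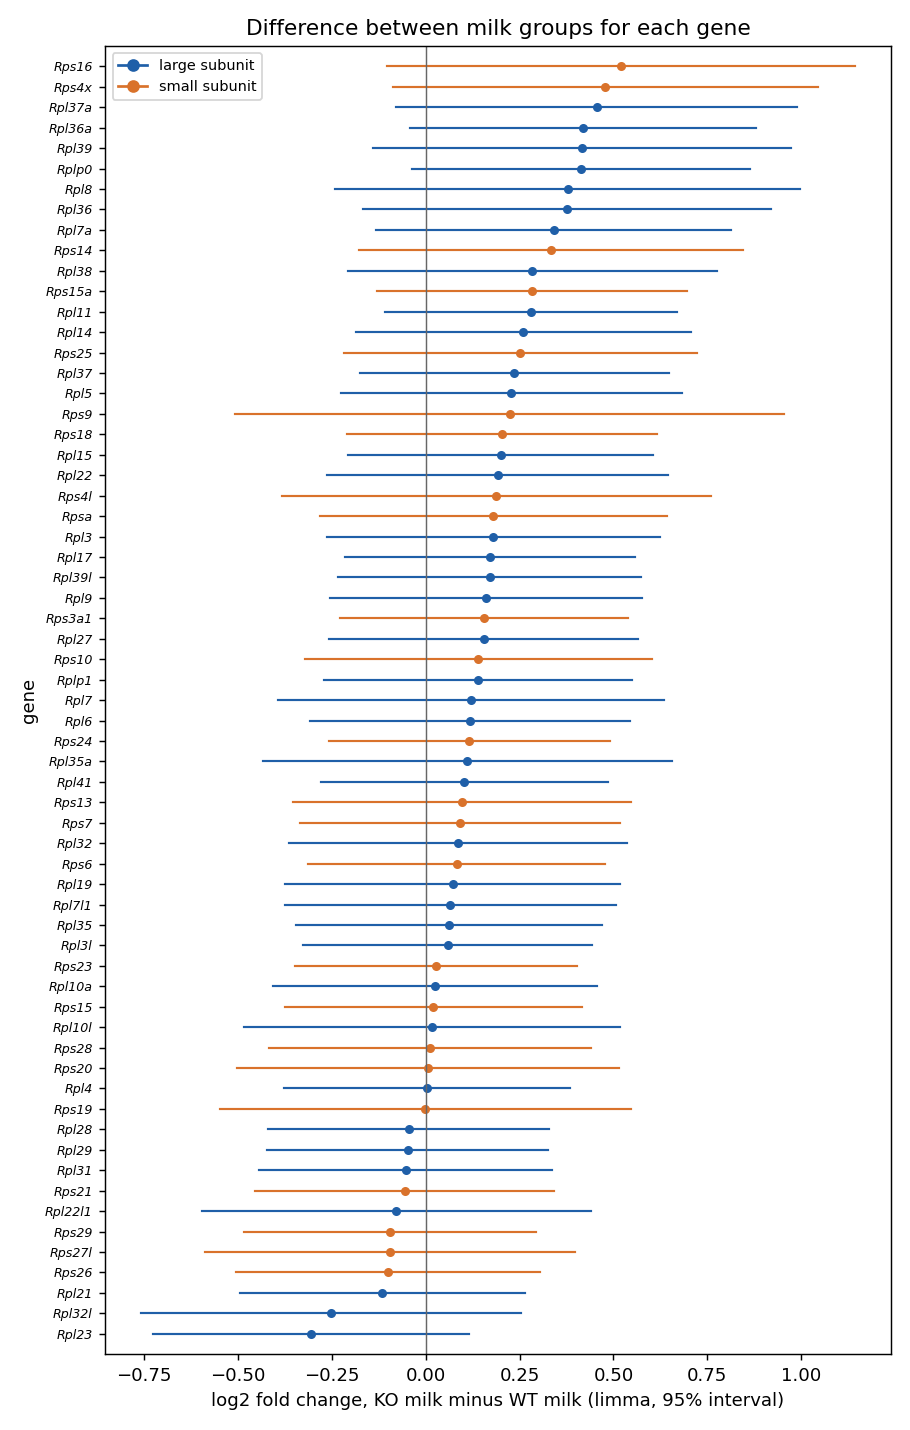
The horizontal axis gives the difference on the log2 scale (KO milk less WT milk) of each of the 63 ribosomal protein genes on the vertical axis, with 95% intervals from limma (blue, large subunit; orange, small subunit). Every interval includes 0, and the values run from -0.31 for *Rpl23* to 0.52 for *Rps16*.

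The intervals put a limit on how large a difference could have gone unseen. For 61 of the 63 members the 95% interval lay within 1 of 0 on the log2 scale, and 94.8% of all clusters did the same. The exceptions were *Rps4x* and *Rps16*, whose intervals reached 1.04 and 1.14. Standard errors (SE) ran from 0.17 to 0.33 on the log2 scale. Of the members, 55 lay above the 75th percentile of mean intensity over all clusters. Intensity depends on the probes as well as on the RNA, so no order of abundance between genes is read from it.

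The members varied from array to array, and they did so together. Taken against the WT milk mean of each gene, the 63 members had a median of -0.14, -0.07 and 0.20 in WT milk replicates 1, 2 and 3. It was -0.0035, 0.13 and 0.33 in KO milk replicates 1, 2 and 3. WT milk replicate 3 thus lay above KO milk replicates 1 and 2, and the groups overlapped. The arrays spanned 0.34 within WT milk and 0.337 within KO milk, and the means of these medians differed by 0.159 between the groups. As mean ± SD over arrays, the WT milk group stood at -0.0045 ± 0.179 (SD, n = 3). The KO milk group stood at 0.155 ± 0.169 (SD, n = 3). The median of all clusters stayed between -0.0078 and 0.02 in every array, which the normalization between arrays sets. The 2609 clusters with a mean log2 intensity of at least 12 had medians between -0.06 and 0.02 in the 6 arrays.

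The count of genes was low and high in the same arrays, but it peaked in WT milk replicate 3 and not in KO milk replicate 3. Of the 63 members, 4, 11 and 58 lay above their own mean over the 6 arrays in WT milk replicates 1, 2 and 3, and 16, 45 and 52 did in KO milk replicates 1, 2 and 3. The highest of the 6 values fell in KO milk replicate 3 for 33 members, in KO milk replicate 2 for 14 and in WT milk replicate 3 for 12. The lowest fell in WT milk replicate 1 for 30 members, in WT milk replicate 2 for 13 and in KO milk replicate 1 for 12. Over all clusters, KO milk replicate 3 held the highest value for 25.2% and the lowest for 24%. That array also stood apart as a whole, at a root mean square log2 distance of 0.479 from its nearest neighbour, whereas the others lay 0.321 to 0.371 from theirs.

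**Figure D2:**
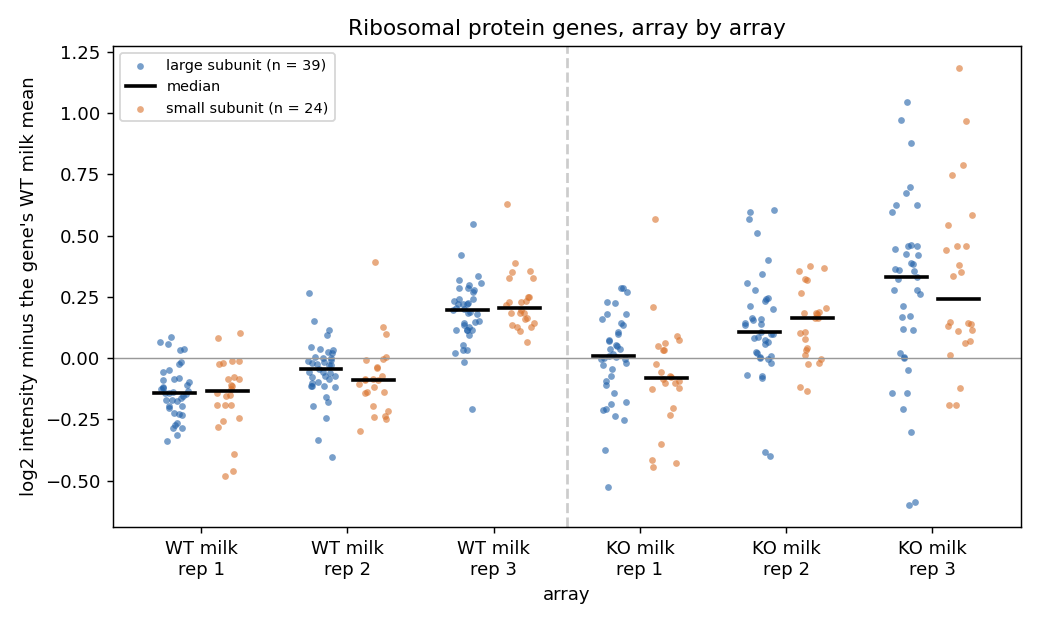
Each point is a ribosomal protein gene in an array, plotted as its log2 intensity minus its mean over the WT milk arrays (vertical axis), for the 3 WT milk and 3 KO milk arrays (horizontal axis). Black bars are medians of the 39 large subunit (blue) and 24 small subunit (orange) genes. They run from -0.14 in WT milk replicate 1 to 0.33 (large) and 0.24 (small) in KO milk replicate 3, and WT milk replicate 3 lies above KO milk replicates 1 and 2.

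Single arrays moved the median between the groups. Leaving out KO milk replicate 3 gave 0.06, with 38 members above 0, and leaving out WT milk replicate 1 gave 0.07. The median was 0.20 once WT milk replicate 3 was left out and 0.21 once KO milk replicate 1 was. When WT milk replicate 3 was left out, 27 members were higher with KO milk with no overlap between the groups, where 8.98% of all clusters were. With all 6 arrays, 0 members were higher without overlap, where 4.26% of all clusters were.

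Large and small subunit genes had similar values. The median difference was 0.14 over the 39 large subunit genes, of which 32 had a value above 0, and 0.11 over the 24 small subunit genes, of which 19 had a value above 0. Against the WT milk mean, large subunit medians were -0.14, -0.04 and 0.20 for WT milk, followed by 0.0090, 0.11 and 0.33 for KO milk. Small subunit medians were -0.13, -0.09 and 0.21 for WT milk, followed by -0.08, 0.16 and 0.24 for KO milk. Large minus small gave -0.0078, 0.05 and -0.0078 for WT milk, followed by 0.09, -0.06 and 0.09 for KO milk. The groups overlapped in this measure too, with means of 0.0104 ± 0.0316 (SD, n = 3) and 0.0415 ± 0.0857 (SD, n = 3). In WT milk replicate 3, 24 of 24 small and 34 of 39 large subunit genes were above their own mean. In KO milk replicate 1, 3 of 24 small and 13 of 39 large subunit genes were.

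The starts of the genes are shown because the TOP tract is the sequence feature that ribosomal protein mRNAs are best known for. RefSeq sequences of GRCm38.p6 around annotated transcription starts were at hand for 50 of the 63 members. The feature searched was a C at the annotated start followed by at least 4 pyrimidines (C or T), on the transcribed strand only, since it is read in the RNA. It was found at 12 of the 50 members (24%) and at 3.01% of the 27025 genes of the table. It was at 0 of 69 mitochondrial ribosomal protein genes. Each line gives 30 bases, 15 before the annotated start and 15 from it on. The first 7 lines show runs from both subunits, chosen from the 12. Capitals mark the pyrimidine run from the start. The last 3 lines show members with no such run at their annotated start, taken from those with the smallest p.
*Rpl15* (chr14:18270972-18271001, minus strand): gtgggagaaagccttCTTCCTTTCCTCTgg
*Rpl35* (chr2:39005117-39005146, minus strand): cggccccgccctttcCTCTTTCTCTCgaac
*Rps10* (chr17:27635230-27635259, minus strand): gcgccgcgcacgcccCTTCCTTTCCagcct
*Rps18* (chr17:33955651-33955680, minus strand): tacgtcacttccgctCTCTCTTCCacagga
*Rps6* (chr4:86857353-86857382, minus strand): aagcggaagtcgggcCTCTTTTTCgtgacg
*Rpl28* (chr7:4792950-4792979, plus strand): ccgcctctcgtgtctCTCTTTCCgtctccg
*Rps15a* (chr7:118116133-118116162, minus strand): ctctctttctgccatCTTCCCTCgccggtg
*Rplp0* (chr5:115559452-115559481, plus strand): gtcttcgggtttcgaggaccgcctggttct
*Rpl36a* (chrX:134585639-134585668, plus strand): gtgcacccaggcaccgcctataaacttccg
*Rps4x* (chrX:102189377-102189406, minus strand): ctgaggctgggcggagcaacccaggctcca

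The run reached 13 bases in *Rpl15*, 11 in *Rpl35* and 8 in *Rpl28* and *Rps15a*. It was shortest in *Rps21*, at 5 bases, which is not among the lines shown. A C followed by at least 4 pyrimidines anywhere in the 30 bases was present in 33 of the 50 members (66%) and in 40.3% of all genes, and on the opposite strand in 28% and 44.6%. An annotated start can lie some bases away from the start used in these cells, so a missing run says only that these letters are not at this position. The 12 members with the run had a median difference of 0.13 and the 38 without it one of 0.12. Against the WT milk mean, members with the run had medians of -0.13, -0.09 and 0.21 for WT milk, followed by -0.05, 0.12 and 0.37 for KO milk. Members without it had -0.13, -0.08 and 0.19 for WT milk, followed by -0.0029, 0.12 and 0.33 for KO milk. Genes with and without the run at the annotated start were thus high and low in the same arrays.

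**Figure D3:**
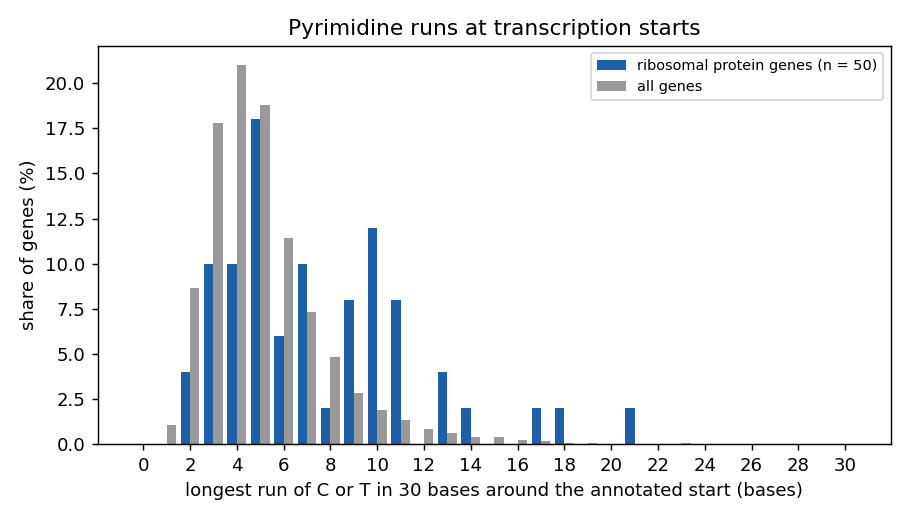
The horizontal axis gives the longest run of C or T within 30 bases around the annotated start and the vertical axis the share of genes with that length, for 50 ribosomal protein genes (blue) and for all 27025 genes of the RefSeq table (grey). The median longest run is 7 bases among ribosomal protein genes and 5 among all genes.

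The stalk of the large subunit recruits the elongation factors, and 2 of its 3 proteins were measured. *Rplp0*, the base of the stalk, had the smallest p of all members. Its log2 intensities were 11.53, 11.45 and 11.97 on the WT milk arrays, against 11.83, 12.25 and 12.10 on those of KO milk. WT milk replicate 3 lay above KO milk replicate 1, so the groups overlapped. The means were 11.65 ± 0.28 (SD, n = 3) and 12.06 ± 0.22 (SD, n = 3), with a difference of 0.41 (SE 0.20, limma adjusted p = 0.9996, 0.0673 before adjustment). *Rplp1*, which sits on *Rplp0* and had the brightest cluster of the members, read 16.88, 16.95 and 17.09 on the WT milk arrays, against 16.97, 16.97 and 17.39 on those of KO milk. Its difference was 0.14, or -2e-04 without KO milk replicate 3 and 0.21 without KO milk replicate 2.

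*Rpl5* and *Rpl11* enter the large subunit together with its smallest ribosomal RNA, and both bind Mdm2, the inhibitor of the tumour suppressor Trp53, when assembly fails. *Rpl11* had log2 intensities of 13.42, 13.51 and 13.73 on the WT milk arrays, against 13.70, 13.90 and 13.91 on those of KO milk. Only KO milk replicate 1 lay inside the WT milk range, and the difference was 0.28 (95% interval -0.11 to 0.67, limma). *Rpl5* read 14.06, 14.39 and 14.58 on the WT milk arrays, against 14.40, 14.85 and 14.46 on those of KO milk. Its difference was 0.23, or 0.09 without WT milk replicate 1 and 0.35 without WT milk replicate 3. Of 10 listed genes of the Mdm2 and Trp53 branch 8 were measured, 0 passed at an unadjusted p under 0.05, and their median was -0.14. Of the 8, 7 had a value below 0. *Ccng1*, *Bbc3* and *Phlda3* (3 of the 8) were lower without overlap, where 4.17% of all clusters were. *Ccng1*, a cyclin gene that Trp53 induces, had the smallest p among the 8 and a difference of -0.51 (SE 0.23).

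Among the proteins of the tunnel through which the new peptide leaves the ribosome, 6 of 8 were measured. Their log2 fold changes ran from -0.05 to 0.42 with a median of 0.07. *Rpl39*, a small protein that lines the tunnel, read 12.38, 12.48 and 13.06 on the WT milk arrays, against 12.91, 12.74 and 13.52 on those of KO milk. WT milk replicate 3 exceeded KO milk replicates 1 and 2, and the difference was 0.42 (SE 0.25). It was 0.18 without KO milk replicate 3 and 0.63 without WT milk replicate 3. *Rpl4*, which forms the narrow point of the tunnel, read 15.98, 15.92 and 16.09 on the WT milk arrays, against 15.99, 16.15 and 15.85 on those of KO milk, a difference of 0.0048 (95% interval -0.38 to 0.39). *Rpl17*, *Rpl19*, *Rpl31* and *Rpl35*, which surround the exit, had values of 0.17, 0.07, -0.05 and 0.06.

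Other large subunit genes with a small p were *Rpl36a*, *Rpl37a* and *Rpl7a*. *Rpl36a* had log2 intensities of 11.63, 11.97 and 12.30 on the WT milk arrays, against 12.19, 12.54 and 12.43 on those of KO milk. Its difference was 0.42 (SE 0.21), or 0.25 without WT milk replicate 1 and 0.59 without WT milk replicate 3. *Rpl37a* had 11.02, 10.74 and 11.19 on the WT milk arrays, against 11.27, 11.09 and 11.96 on those of KO milk, and a difference of 0.46 (SE 0.24). KO milk replicate 3 was the high array for *Rpl37a*, whose difference was 0.20 without it and 0.63 without KO milk replicate 2. *Rpl7a*, a large subunit protein, had a difference of 0.34 (SE 0.21) and overlapped between the groups. Its difference was 0.18 without KO milk replicate 3 and 0.50 without WT milk replicate 3.

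In the small subunit, *Rps16* had the largest log2 fold change of the members. It read 12.34, 12.39 and 12.86 on the WT milk arrays, against 12.58, 12.85 and 13.71 on those of KO milk. KO milk replicate 3 was far above the rest, and KO milk replicates 1 and 2 lay within the WT milk range. The difference was 0.52 (SE 0.28, limma adjusted p = 0.9996, 0.0929 before adjustment), a 1.43-fold higher mean with KO milk. It was 0.19 without KO milk replicate 3 and 0.75 without KO milk replicate 1. *Rps4x* showed the same arrangement, with 12.17, 12.34 and 12.84 against 12.54, 12.82 and 13.42, a difference of 0.48. It was 0.23 without KO milk replicate 3 and 0.67 without KO milk replicate 1.

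Of the proteins along the path of the mRNA through the small subunit, 5 of 8 were measured. Their log2 fold changes ran from -0.10 to 0.33, and 4 of the 5 were above 0. *Rps14*, on the platform beside the mRNA, had the largest, at 0.33 (SE 0.23). *Rps26*, at the exit of the mRNA, read 12.87, 12.99 and 13.12 on the WT milk arrays, against 12.64, 13.03 and 13.01 on those of KO milk, a difference of -0.10. *Rps3a1*, *Rps28* and *Rps23*, the last of which reaches the decoding site, had values of 0.16, 0.01 and 0.03.

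*Rps6* is the ribosomal protein that S6 kinases phosphorylate downstream of mTOR. It read 15.91, 16.03 and 16.25 on the WT milk arrays, against 15.99, 16.25 and 16.21 on those of KO milk, with a difference of 0.08 (95% interval -0.31 to 0.48). *Rps19*, the gene most often mutated in human Diamond-Blackfan anaemia, read 9.62, 9.67 and 9.99 on the WT milk arrays, against 9.33, 9.64 and 10.30 on those of KO milk. Its means were 9.76 and 9.76, so the arrays of a group differed while the groups did not separate (95% interval -0.55 to 0.55). *Rpsa*, which is also known as a laminin receptor, had a difference of 0.18 (SE 0.21).

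**Figure D4:**
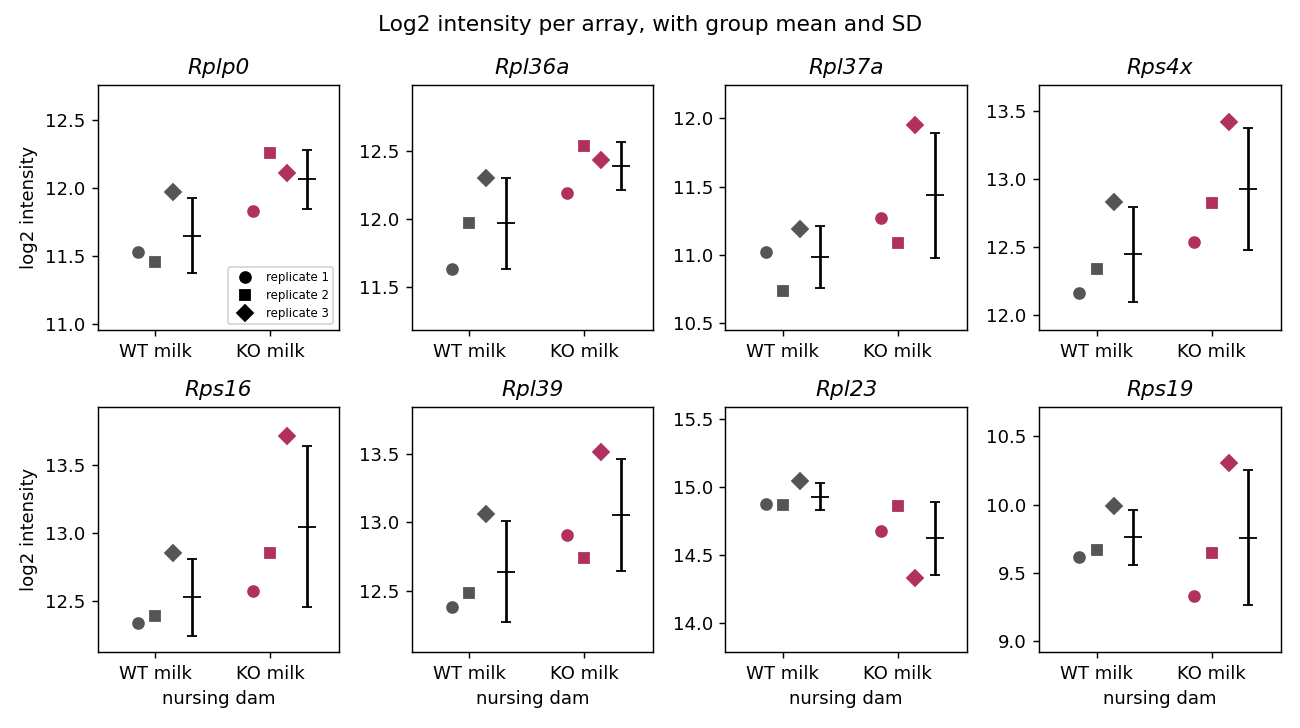
Log2 intensity (vertical axes, each spanning the same number of log2 units) of 8 ribosomal protein genes in the WT milk (grey) and KO milk (red) arrays, with circles, squares and diamonds for replicates 1, 2 and 3 and bars for group mean ± SD (n = 3). *Rpl23* is the gene whose groups do not overlap, and KO milk replicate 3 is the highest array for *Rpl37a*, *Rps4x*, *Rps16*, *Rpl39* and *Rps19*.

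Of the 12 members with a value below 0, *Rpl23*, which lies at the face of the large subunit that meets the small one, had the lowest. It read 14.87, 14.87 and 15.04 on the WT milk arrays, against 14.68, 14.86 and 14.33 on those of KO milk. Every KO milk array lay below every WT milk array, by a narrow margin between replicate 2 of each. A two-sided exact permutation test over the arrays gave p = 0.1, which 3 against 3 cannot go below. The difference was -0.31 (SE 0.19, limma adjusted p = 0.9996, 0.137 before adjustment), 1.24-fold more signal with WT milk. It was -0.16 without KO milk replicate 3 and -0.43 without KO milk replicate 2. *Rpl23* was the single member lower without overlap, where 4.17% of all clusters were, and with the arrays set to a common median its groups overlapped. *Rpl32l*, which the array names as an *Rpl32*-like gene, had a difference of -0.25 (SE 0.23). Leaving out an array gave -0.11 for KO milk replicate 1, -0.14 for WT milk replicate 3, -0.41 for WT milk replicate 1 and -0.46 for KO milk replicate 3. *Rpl21*, *Rps29* and *Rps21* had values of -0.11, -0.09 and -0.06. In the same order, they had -0.06, -0.0020 and 0.06 without WT milk replicate 3, and -0.19, -0.15 and -0.10 without WT milk replicate 1.

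The paralogs of ribosomal proteins, which replace or accompany the core protein in some tissues, had no member past an unadjusted p under 0.05. *Rpl3l*, the paralog of striated muscle, ran from 4.04 to 4.36 over the 6 arrays and *Rpl39l*, a paralog of male germ cells, from 3.91 to 4.45. Their mean intensities lay at the 13.6th and 13.5th percentiles of all clusters, in the dim part of the array, and no difference is read from them. *Rpl10l*, also known from male germ cells, ran from 7.09 to 7.80 with a difference of 0.02. *Rpl22l1*, the paralog of *Rpl22*, read 10.60, 10.58 and 10.89 on the WT milk arrays, against 10.77, 10.97 and 10.10 on those of KO milk, a difference of -0.08 that was 0.18 without KO milk replicate 3. *Rps27l*, a paralog of Rps27 that Trp53 induces, had -0.09, or 0.10 without WT milk replicate 2. *Rpl7l1* and *Rps4l* had 0.07 and 0.19. The 55 members left after removing symbols that end in l or l1 had a median of 0.14.

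*Fau* encodes a small subunit protein fused to a ubiquitin-like domain, and *Rpl36al* is a copy of *Rpl36a* outside the naming pattern. *Fau* read 12.12, 12.21 and 12.58 on the WT milk arrays, against 12.02, 12.31 and 12.54 on those of KO milk, a difference of -0.02. *Rpl36al* had one of 0.03 (SE 0.29), with values from 7.75 to 8.80. Both were highest in WT milk replicate 3.

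The members with the widest spread within groups were *Rps9*, *Rps16* and *Rpl8*. *Rps9*, a small subunit protein, read 10.37, 10.53 and 11.40 on the WT milk arrays, against 10.32, 11.13 and 11.51 on those of KO milk. Its pooled SD was 0.58, its difference was 0.22, and WT milk replicate 3 and KO milk replicates 2 and 3 were the high arrays. *Rpl8*, whose protein lies near the peptidyl transferase centre, read 12.95, 13.12 and 13.46 on the WT milk arrays, against 13.07, 13.38 and 14.22 on those of KO milk. *Rpl41*, the shortest ribosomal protein, and *Rps23* were among the brightest. *Rpl41* read 16.54, 16.68 and 16.83 against 16.78, 16.68 and 16.89, with a difference of 0.10, and *Rps23*, with a pooled SD of 0.11, stayed between 16.39 and 16.64 in all arrays.

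All 63 members matched a RefSeq gene under the same symbol, on 18 chromosomes. The 3 members on the X chromosome, *Rps4x*, *Rpl36a* and *Rpl39*, had log2 fold changes of 0.48, 0.42 and 0.42. They were set apart after their values were seen, so no test is given. The labels call all pups male, yet *Uty* of the Y chromosome read 11.12, 3.99 and 10.74 for WT milk, followed by 3.39, 10.93 and 3.62 for KO milk. *Kdm5d* and *Eif2s3y*, also Y-linked, were high and low in the same arrays. The male label thus goes against the values of WT milk replicate 2 and KO milk replicates 1 and 3, and the paper states that its neonates were of both sexes. Signal was high in 2 WT milk arrays and 1 KO milk array, so sex was not balanced between the groups. Among the arrays with high *Uty* signal (WT milk replicates 1 and 3 and KO milk replicate 2), the median difference of the 63 members between the milk groups was 0.07. Among the arrays with low signal (WT milk replicate 2 and KO milk replicates 1 and 3) it was 0.17. Each of these values has a group of 1 array, KO milk at high signal and WT milk at low signal. That group has no spread, and whether the difference depends on sex was not tested. The median of the X-linked members against the WT milk mean was -0.28, 0.39 and 0.38 in the arrays with high signal and -0.11, 0.23 and 0.88 in those with low signal, so these ranges overlapped.

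Other genes of translation were compared through lists chosen with the earlier results of these arrays known. Elongation factors and related abundant factors had a median difference of 0.10 over 10 genes, with 9 above 0. Against the WT milk mean, their medians were -0.13, -0.07 and 0.14 for WT milk, followed by -0.07, 0.05 and 0.30 for KO milk, lowest in WT milk replicate 1 and highest in KO milk replicate 3 as for the ribosomal proteins. *Eef1d* and *Eef1b2*, subunits of the exchange factor of elongation, had log2 fold changes of 0.32 and 0.15, and *Eef2*, which moves the ribosome along the mRNA, had 0.16. Initiation factors had a median of 0.09 over 27 genes, with 18 above 0. *Eif3i*, a subunit of the scaffold of initiation, had 0.45 (SE 0.26), *Eif2b4*, of the exchange factor of initiation, 0.30 and *Eif1ax*, which helps to find the start codon, -0.54 (SE 0.25). None of these 37 genes passed at an unadjusted p under 0.05.

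The lists of ribosome assembly, RNA polymerase I and mTOR control had lower medians than the ribosomal protein genes (0.12), a difference that was not tested. The 37 measured ribosome assembly factors, which act in the nucleolus, in export and in late maturation in the cytoplasm, had a median difference of -0.05, and in KO milk replicate 3, where the ribosomal proteins were highest, their median against the WT milk mean was -0.16. *Nop16*, *Nop10* and *Tsr1*, which act in ribosome assembly, had -0.26, -0.25 and 0.26. The 14 measured genes of RNA polymerase I and its factors had a median of 0.02, and *Taf1b* and *Cd3eap* had -0.39 and -0.32. The 17 measured genes of the mTOR pathway and of TOP mRNA control had a median of -0.10, with *Rptor*, the scaffold of mTOR complex 1, at 0.30 and the kinase gene *Rps6ka3* at -0.33. Again 0 genes of these 3 lists passed at an unadjusted p under 0.05.

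Nuclear genes for mitochondrial proteins, which also give short and abundant mRNAs, were set beside the ribosomal proteins. The 76 mitochondrial ribosomal protein genes had a median difference of -0.03 and the 82 genes of oxidative phosphorylation one of -0.03. In WT milk replicate 3, 61 of the 76 and 73 of the 82 lay above their own mean over the arrays, as 58 of the 63 cytosolic members did. In KO milk replicate 3, 31 of the 76 and 46 of the 82 did, against 52 of the 63. At an unadjusted p under 0.05, 0 of the 76 passed and 1 of the 82 was lower. The difference between these lists was not tested.

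**Figure D5:**
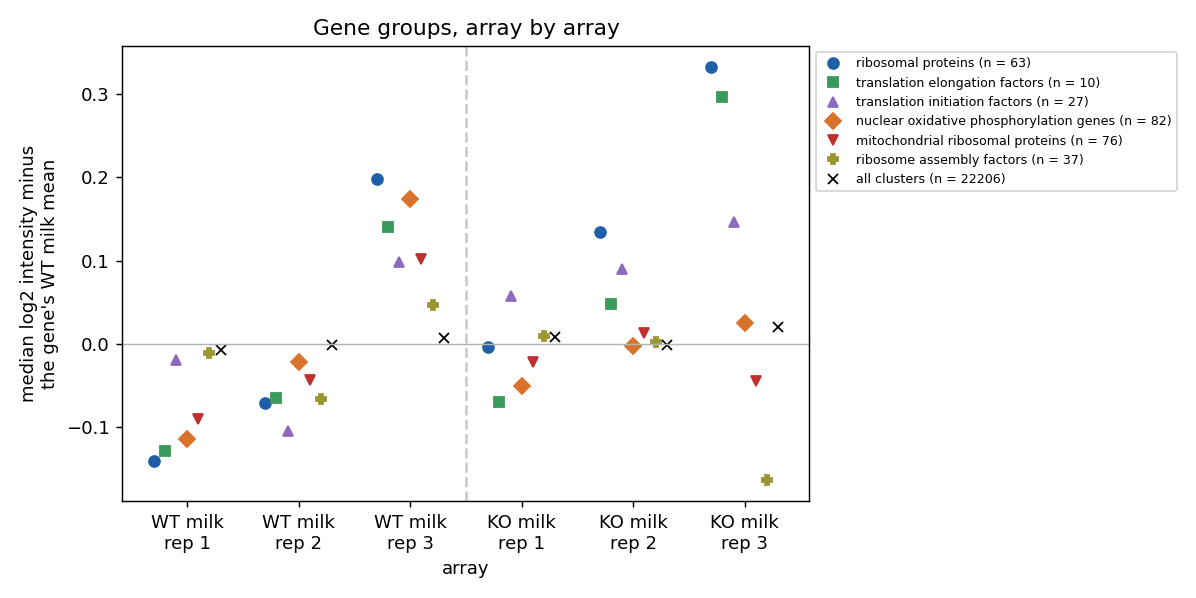
The vertical axis gives the median, over the genes of a group, of log2 intensity minus each gene's WT milk mean, in each of the 6 arrays (horizontal axis). Ribosomal proteins (blue circles) and elongation factors (green squares) reach 0.33 and 0.30 in KO milk replicate 3, where the mitochondrial groups (orange diamonds, red triangles) lie at 0.02 and -0.04 and assembly factors (olive plus signs) at -0.16.

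Markers of the tissue and of other cell types were read in the same arrays. Of 10 listed markers of hippocampal neurons 9 were measured, with a median difference of 0.12 and 7 above 0. Against the WT milk mean, their medians were 0.15, -0.30 and 0.18 for WT milk, followed by 0.21, 0.18 and 0.14 for KO milk. *Prox1* of the dentate gyrus read 13.74, 13.44 and 13.60 on the WT milk arrays, against 14.06, 14.39 and 13.96 on those of KO milk. The groups did not overlap, and the difference was 0.54 (SE 0.19, limma adjusted p = 0.9996, 0.0149 before adjustment). *Prox1* was named after its values were seen, as the 1 marker of the 9 higher at an unadjusted p under 0.05, where 1.61% of all clusters were. The 2 markers below 0 were *Wfs1* and *Neurod6*, at -0.26 and -0.03. Of 14 listed myelin genes 13 were measured, and 12 were lower with KO milk at an unadjusted p under 0.05, where 1.66% of all clusters were. After adjustment 0 of the 13 passed. Medians of the 13 against the WT milk mean were -1.20, -0.53 and -1.02 in the KO milk arrays. The 9 measured choroid plexus markers had medians of 0.33, -0.04 and -0.41 for WT milk, followed by -1.35, 0.57 and -1.31 for KO milk. All 9 had a difference below 0, and 2 were lower at an unadjusted p under 0.05, where 1.66% of all clusters were. *Ttr*, with the lowest log2 fold change of all clusters (-5.30, SE 1.91), read 17.74, 17.68 and 17.10 on the WT milk arrays, against 10.76, 18.18 and 7.69 on those of KO milk. The 8 thalamus markers had -0.05, 0.16 and -0.07 for WT milk, followed by -0.30, -0.21 and -0.40 for KO milk, and 4 of them were lower at an unadjusted p under 0.05, where 1.66% of all clusters were. Of the blood cell markers 2 of 10 were measured, with differences of 0.05 and 0.09. Markers of astrocytes, microglia, endothelium and mural cells, and dividing progenitors had median log2 fold changes between -0.08 and -0.0016. The part of these cell types in the values of the ribosomal protein genes was not tested.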

How the data were processed

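Hippocampal RNA of 6 pups was measured on Clariom S mouse arrays, and samples were grouped by the mother genotype in the labels (3 per group). Per the labels, the authors processed the scans in Transcriptome Analysis Console by RMA (background correction, normalization, probe summary), and each deposited value is a log2 intensity of a cluster. The background step and the genome build of the array are not given in the sources used here. RMA pulls arrays towards one distribution, so a shift shared by most genes is largely removed and values are read relative to other genes. Small shifts remained, since the array medians ran from 6.886 to 6.919 on the log2 scale. The arrays are few, which limits precision.

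limma 3.58.1 (R 4.3.3) was run over all 22206 clusters (lmFit, eBayes, KO milk minus WT milk, no intensity filter, threshold 0.05 after Benjamini-Hochberg adjustment) and the fit was tested on simulated data. Symbols came from the array annotation, and 2634 clusters carried none. Members and lists were chosen with earlier results of these data known. Named members were the 8 higher and 8 lower with the smallest p, the 3 brightest, the 3 dimmest, the 3 with the widest spread, the structural groups and paralogs, and *Rps6*, *Rps19* and *Rpsa*. Outside the members, up to 3 genes with the smallest p of each translation list were named. *Prox1*, *Wfs1*, *Neurod6*, *Ttr*, *Uty*, *Kdm5d*, *Eif2s3y* and the X-linked set lie outside this rule. So does the comparison of *Rpl15*, *Rpl35*, *Rpl28*, *Rps10*, *Rps15a* and *Rps18* by sequence. Alternatives were further normalization, an intensity filter, array weights, a variance trend, an unmoderated test per cluster, the replicate block, other member sets and each array left out. Y-linked signal as a covariate was added after seeing the data.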

Additional observations from a re-analysis of the deposited data

How the results depend on the processing

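The median over ribosomal protein genes was 0.12 in the report. It ran from 0.035 with array weights to 0.1471 with repeated quantile normalization, and from 0.0577 to 0.2133 with an array left out. The medians of all, large and small subunit members moved by less than the spread between arrays under each alternative. For all members that spread (SD 0.179 for WT milk and 0.169 for KO milk) exceeds the median itself, so smaller shifts do not show that the median is stable. The small subunit median, 0.11 in the report, was -0.0065 with array weights. The counts moved more, and the cause was not tested. At an unadjusted p under 0.05, 1 member was higher with repeated quantile normalization, with cyclic loess and with Y-linked signal as a covariate (*Rplp0* each time, where 1.5%, 1.42% and 0.932% of all clusters were), and 0 to 5 were with an array left out (1.26% to 2.58% of all clusters). The 5 were *Rpl36*, *Rpl36a*, *Rpl39*, *Rplp0* and *Rps4x*, without WT milk replicate 3. *Rpl32l* was the 1 member lower with array weights (2.59% of all clusters) and without KO milk replicate 3 (1.98%), in a range of 0 to 1 with an array left out. Members higher without overlap numbered 2 with repeated quantile normalization (4.44% of all clusters), 2 with cyclic loess (4.12%) and 0 to 27 with an array left out (8.44% to 11.2%). Members lower without overlap numbered 0 with a common median (3.47%) and 1 to 4 with an array left out (8.09% to 10.3%). Over all clusters, limma called 0 to 1 with an array left out (1 without KO milk replicate 2). The unmoderated test gave 0 members at an unadjusted p under 0.05.

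Over all clusters, same-numbered arrays did not deviate together (correlations of 0.0247, -0.127 and 0.0163). The medians of the 63 members, however, rose from replicate 1 to 3 in both groups. They were -0.14, -0.07 and 0.20 for WT milk, followed by -0.0035, 0.13 and 0.33 for KO milk. Whether the numbers pair the samples was not tested for these genes. With the replicate block, 3 members (*Rpl37a*, *Rps16* and *Rps4x*) were higher at an unadjusted p under 0.05, where 1.5% of all clusters were. Of the 63 members, 51 were above 0 in the report and 38 were with array weights and without KO milk replicate 3, each of which turned the sign of 15 members. Leaving out another array turned 4 to 7. Among the 18 members followed singly, signs turned for *Rpl22l1* (0.035 with array weights, 0.047 with Y-linked signal as a covariate, -0.26 to 0.18 with an array left out), *Rps27l* (-0.32 to 0.10), *Rps21* (-0.1276 to 0.0597), *Rps26* (-0.1673 to 0.0241) and *Rplp1* (-2e-04 to 0.21), the last 4 with an array left out. The adjusted p of these 18 ran from 0.7915 to 1. The mean of all clusters of a symbol changed nothing, since each member has a single cluster.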
